A study of Arabidopsis thaliana with 11 samples.

Results

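Gene expression was compared between endosperm of Arabidopsis thaliana seeds whose mother carried a fie mutation and endosperm of wild-type seeds of the same cross. The comparison rests on 1 of the 11 libraries of the series, set against 2 wild-type libraries, 1 called pure and 1 called full endosperm. All 3 came from a Landsberg erecta (Ler) mother pollinated by a Columbia (Col) father, so that sequence differences between the ecotypes told the maternal (Ler) from the paternal (Col) transcript. The fathers were wild type throughout. The fie mothers were heterozygous for fie-1 in the Ler ecotype, per the labels, and the sources used here do not say whether seeds were sorted by the allele they inherited. Seeds were taken 7 to 9 days after pollination, between the mid-torpedo and the early maturation stage, and the endosperm was dissected away from the embryo and the maternal seed coat. The source of the fie library is given as pure endosperm, and how pure and full preparations differ is not stated. Another 3 wild-type endosperm libraries, from the reciprocal cross of a Col mother and a Ler father (2 pure and 1 full), entered the fits to estimate the spread between libraries. The title of 1 of these pure libraries carries the letters LCM.

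FIE is the WD40 subunit of Polycomb Repressive Complex 2 (PRC2), which places methyl groups on lysine 27 of histone H3 and so keeps target genes silent. In the seed, the complex that contains the maternally expressed subunits MEA and FIS2 holds back endosperm proliferation, and its loss lets endosperm develop without fertilization or keeps fertilized endosperm from cellularizing. Silencing of the maternal allele by this complex is also one known route to imprinting, in which a gene is expressed mainly from the paternal allele. Endosperm receives 2 maternal copies of the genome for each paternal copy.

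The fie library held 3766443 allele-assigned reads, the wild-type pure library 2840412 and the wild-type full library 4828301, and the maternal share of these reads was 77.3%, 66.9% and 71.5%. Levels are given as CPM, the share of the allele-assigned reads of a library scaled to a total of 1000000. FIE (AT3G20740) had no allele-assigned read in any of the 3 libraries, so its own level could not check the label. Marker lists set the fie library apart from the same-cross wild-type libraries in another way. The 34 genes of a seed coat list summed to 25400 CPM in fie, 3000 in the pure and 10300 in the full wild-type library, and the laccase gene TT10 (AT5G48100) alone stood at 19400, 1490 and 7560 CPM. The seed coat sum was 14800 CPM in the wild-type full library of the reciprocal cross. It was 58000 in endosperm of a dme mother, a mutant library that entered no comparison. No seed coat gene among the 23 tested was at 0 in fie. The 28 genes of an embryo list summed to 700, 700 and 862 CPM. The like sums hide opposite changes. In fie 378 of the 700 CPM came from ATML1 (AT4G21750), which stood 5.13-fold above the full library, while 11 of the 13 tested embryo genes had a negative log2 fold change. Of endosperm markers, the sucrose transporter gene SUC5 (AT1G71890) stood at 354, 274 and 218 CPM, the bHLH gene ZOU (AT1G49770), also called RGE1, at 13.8, 109 and 120 CPM, and the extensin-like gene EPR1 (AT2G27380) at 73.5, 131000 and 144000 CPM.

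Which genes change in total expression when the mother carries fie was asked first. Genes silent or nearly silent in wild-type endosperm had many reads in the fie library, among them type I MADS genes and genes known as paternally expressed, while EPR1, storage reserve genes and regulators of seed maturation were lower. Of 11118 genes with at least 20 reads over the 3 libraries, 888 (7.99%) were called higher and 355 (3.19%) lower in fie, a call being an adjusted p under 0.05 in edgeR's quasi-likelihood test with Benjamini-Hochberg adjustment. Of the genes called higher, 608 had under 20 reads in the 2 wild-type libraries together and passed the read minimum only through the fie library. Of the genes called lower, 255 had under 20 reads in fie and passed the read minimum only through the wild-type libraries. Among the 9339 genes with at least 20 wild-type reads, 280 (3.0%) were called higher and 355 (3.8%) lower. A minimum of wild-type reads kept all 355 lower calls, so it does not free lower calls of this limit. By a plain fold rule without a test, 1345 genes (12.1%) lay at least 4-fold above both wild-type libraries and 760 (6.84%) at least 4-fold below both, a library under 3 reads being counted as 3 reads.

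The median log2 fold change over all tested genes was 0.65. Under TMM normalization, which sets typical genes to a ratio near 1, the median was 0.10, and 619 genes were called higher and 443 lower. DESeq2 called 547 higher and 798 lower. Of the main calls, 612 of the 888 higher and 324 of the 355 lower were also made under TMM. The test assumes that the lone mutant library varies as the wild-type libraries do, and it had 2 residual degrees of freedom. Leaving out the wild-type pure library left 107 higher and 112 lower calls, leaving out the full library left 237 and 124, and leaving out the LCM-titled pure library gave 3376 and 1409. In these bulk libraries, fewer cells of a type and less RNA per cell cannot be told apart.

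**Figure D1:**
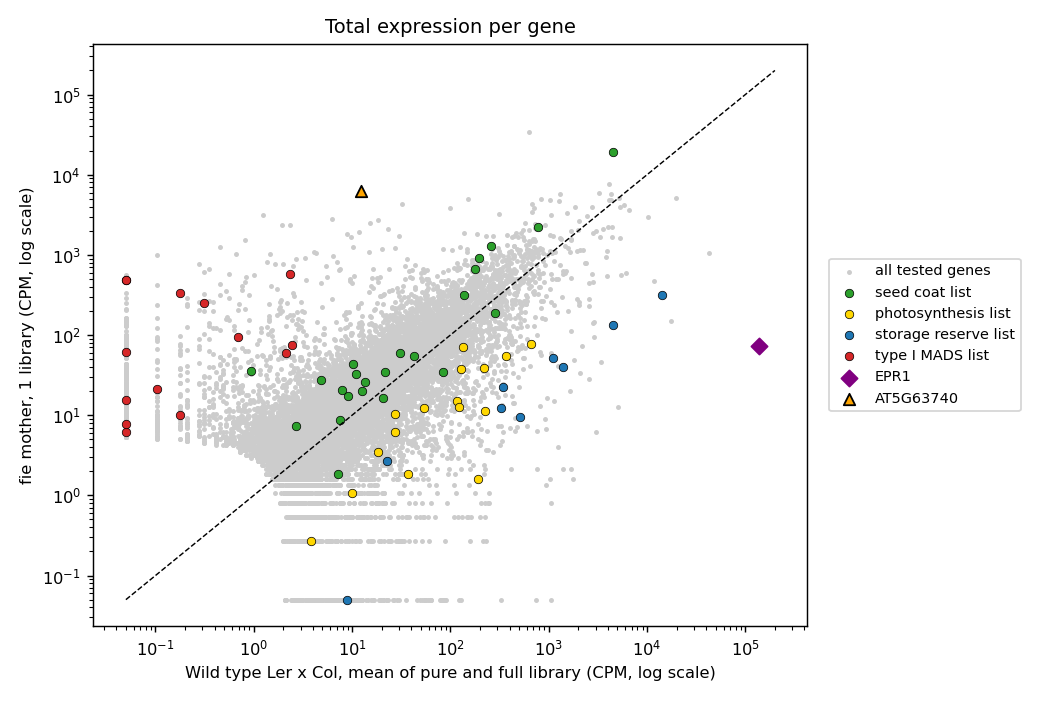
Each point is 1 of 11118 tested genes, with the mean CPM of the wild-type pure and full libraries on the horizontal axis and the CPM of the single fie library on the vertical axis, both on log scales with a value of 0 drawn at the lower end. Type I MADS genes (red) lie at the upper left, storage genes (blue) and photosynthesis genes (yellow) below the dashed line of equal levels, most seed coat genes (green) and AT5G63740 (orange triangle) above it, and EPR1 (purple) falls from 131000 and 144000 CPM to 73.5.

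The other subunits of PRC2 were looked at beside FIE. Of the 8 genes of the list, 3 had no read in the 3 libraries and 5 were tested, of which edgeR called 0, with 1 at an unadjusted p under 0.05 and 0 called by DESeq2. VRN2 (AT4G16845), a zinc finger subunit, stood at 241 CPM in fie, 216 in the pure and 129 in the full library. The methyltransferase SWN (AT4G02020) was at 49.1, 50 and 64.4 CPM, and its homolog CLF (AT2G23380) at 5.31, 6.34 and 11.6. The maternal change of SWN exceeded its paternal change by 2.12 ± 0.65 (SE) on the log2 scale (adjusted p = 0.0146 in edgeR). SWN was the 1 called of 4 listed genes tested in this way. Of all genes so tested 10.6% were called in this direction, with a median difference of 0.70. EMF2 (AT5G51230), a relative of VRN2, had 13, 0 and 23 reads. FIS2 (AT2G35670), the seed-specific relative of VRN2, had 23 reads in fie against 1 and 4. The fold change of FIS2 missed the threshold (log2 = 3.43 ± 1.08 (SE), adjusted p = 0.0627 in edgeR). A gene annotated as encoding a VEFS-box Polycomb protein, AT4G16810, is on no list but was among the 10 largest increases, with 1269 reads in fie and no read in either wild-type library. It passed the read minimum only through the fie library, which fixed its direction. It was at least 319-fold higher, with a library of 0 reads set to 3 reads (adjusted p = 0.000778 in edgeR). Of 13 genes of PRC1 and other Polycomb factors 6 were tested, and AT3G23060, which encodes a RING protein listed as BMI1C, was called higher with 32 reads against 0 and 0 (adjusted p = 0.0185 in edgeR). AT3G23060, too, passed the read minimum only through the fie library.

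Type I MADS genes, a family of transcription factor genes active mainly in the female gametophyte and the early endosperm, were far higher in summed level. Their 40 listed members summed to 2490 CPM in fie, against 11.3 in the pure and 9.94 in the full wild-type library. The 5 wild-type endosperm libraries, both crosses included, lay between 5.7 and 41.9 CPM. No read of 17 members was found in the 3 libraries, another 9 stayed under 20 reads, and 14 were tested and called higher. None of the 14 had 20 wild-type reads, so the read minimum fixed their direction and the count is a description only.

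AGL38 (AT1G65300), also called PHE2, had 1815 reads in fie and 0 in both wild-type libraries, which puts it at least 456-fold higher (adjusted p = 0.00417 in edgeR, not called by DESeq2). Its near-identical neighbour PHE1 (AT1G65330), a well-known Polycomb target of the seed, had no allele-assigned read in any of the 3, and reads shared by such a pair are uncertain. AT5G26630, listed as AGL35, had 1856 reads in fie and 0 in both wild-type libraries, at least 467-fold higher (adjusted p = 0.00068 in edgeR). AGL23 (AT1G65360), which has a role in the female gametophyte, had 1245 reads against 1 and 0. Its ratio to the pure library was 939, with an exact 95% counting interval from 168 to 37100 (adjusted p = 0.000819 in edgeR). AT3G05860, listed as AGL45, had 950 reads against 0 and 3, and a ratio to the full library of 406 (counting interval 138 to 1970). AGL62 (AT5G60440), which holds off the cellularization of the endosperm, had 360 reads against 1 and 5 (log2 = 7.26 ± 0.96 (SE), adjusted p = 0.00118 in edgeR). AGL61 (AT2G24840), a central cell partner of AGL80, had 231 reads against 0 and 0, at least 58.1-fold higher. The fie value lay above both wild-type values for each of these 6 genes.

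The median log2 of the 14 tested members was 7.77, or 6.68 with the 6 members at 0 in both wild-type libraries set to their bound, beside 0.65 over all tested genes. The read minimum, passed only through fie, lifted this median as well, so it is a description only. Both parental alleles took part. The summed maternal level of the list was 1610 CPM in fie against 3.52 and 6.42, and the summed paternal level 876 CPM against 7.75 and 3.52. Of the members tested by allele, 13 of 13 were called higher from maternal and 10 of 10 from paternal reads, again with the direction fixed by the read minimum. TMM normalization called 13 of the 14 totals and DESeq2 9, and 4 were called without the wild-type full and 2 without the pure library.

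**Figure D2:**
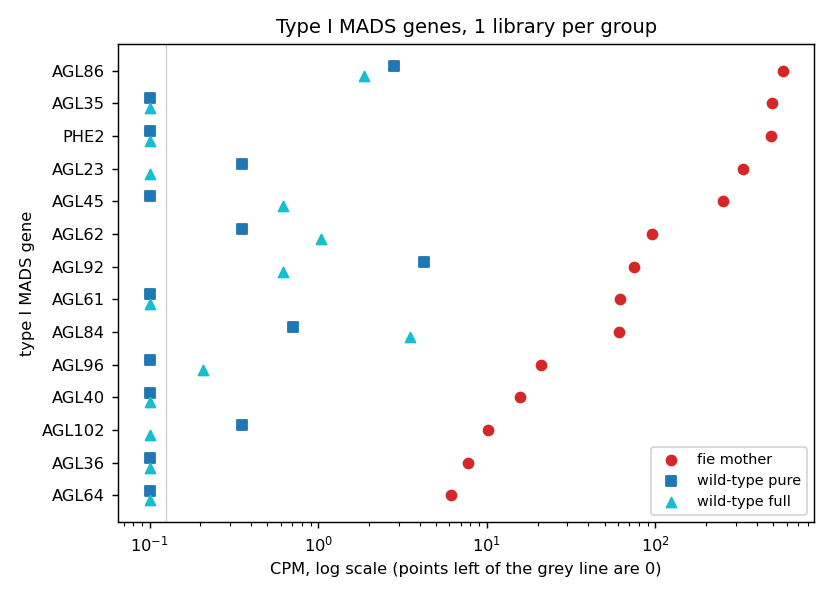
Each row is 1 of the 14 tested type I MADS genes, with its level in CPM on a log axis in the fie (circle), wild-type pure (square) and wild-type full (triangle) libraries, 1 library each. All 14 fie values lie to the right of both wild-type values, and points left of the grey line have no read. PHE2 is AGL38, and AGL35 and AGL45 are AT5G26630 and AT3G05860.

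MADS proteins bind CArG boxes, here searched on both strands as CC and GG with 6 letters of any kind between them, in the 250 bases before each gene's annotated start in the RefSeq genome of build TAIR10.1 (the Col reference). The promoter of AT5G26630, among the strongest type I MADS genes, is shown because it holds a match, printed in capitals.
AT5G26630 promoter, chr5:9350562-9350811 (plus strand): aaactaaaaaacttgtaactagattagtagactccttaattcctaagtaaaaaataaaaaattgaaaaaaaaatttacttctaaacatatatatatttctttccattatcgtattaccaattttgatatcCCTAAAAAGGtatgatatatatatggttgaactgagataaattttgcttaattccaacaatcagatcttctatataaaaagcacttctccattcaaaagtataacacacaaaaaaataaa
Such a match occurred in 6 of 40 type I MADS promoters and in 4796 of all 27443 promoters (17.5%). The box begins 120 bases before the start of AT5G26630. A match is a description of the letters and not a bound site.

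Other genes with the largest increases had reads from both parents and almost none in wild type. They passed the read minimum only through the fie library, which fixed their direction, so their calls are a description only. Of the 205 tested genes with no read in either wild-type library, 204 were called higher. ENODL11 (AT2G23990), of the early nodulin-like proteins, had 3723 reads in fie against 0 and 1, with 1955 of the fie reads maternal and 1768 paternal (ratio to the full library 4770, counting interval 856 to 189000). AT4G15050, a gene of a domain of unknown function, had 2135 reads against 0 and 0, at least 537-fold higher. The glucanase gene BG1 (AT3G57270), of the family that cuts callose-type glucans, had 1097 reads against 0 and 0, at least 276-fold higher, and the glycosyl hydrolase gene AT4G33840 had 946 against 0 and 0, at least 238-fold higher. The serine carboxypeptidase-like gene SCPL21 (AT3G25420) had 783 reads against 0 and 0, at least 197-fold higher. Each of these was called in edgeR, with an adjusted p of 0.000671 for ENODL11, AT4G15050 and BG1, 0.000819 for AT4G33840 and 0.000855 for SCPL21.

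A smaller number came mostly from 1 parent. The genes of this paragraph, too, passed the read minimum only through the fie library. AT1G32020, an F-box gene, had 805 maternal reads and 1 paternal read in fie and 0 in both wild-type libraries, at least 203-fold higher. AT2G16300, another F-box gene, had 96 maternal and 472 paternal reads in fie against 0 and 0, at least 143-fold higher. The cytochrome P450 gene AT2G12190 had 62 maternal and 1022 paternal reads, against 2 maternal reads in the full library and none in the pure library. Genes of small secreted cysteine-rich proteins were higher as well, but were read from both parents. The SCR-like gene SCRL10 (AT4G15735) had 3857 reads in fie, 3186 of them maternal, against 2 and 3. The defensin-like gene AT3G24510 had 5823 reads in fie, 3807 of them maternal, against 4 and 1. The log2 fold change was 10.53 ± 1.03 (SE) for SCRL10 and 11.25 ± 1.01 for AT3G24510, both with an adjusted p of 0.000671 in edgeR.

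Genes known from the literature as paternally expressed imprinted genes were described as a group. Their 22 listed members summed to 10500 CPM in fie against 1020 and 886, of which the maternal part was 5330 against 126 and 218 CPM and the paternal part 5130 against 897 and 668 CPM. The summed maternal share was 50.9% in fie, 12.3% in the pure and 24.6% in the full library. Of the members, 3 had no read and 19 were tested, and 12 of the 19 were called higher in total, 9 by DESeq2. In 10 of the 19 the wild-type libraries together held under 20 reads. Of the other 9 members, 3 were called higher, beside 3.0% of all genes with as many wild-type reads.

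AT5G63740, a RING/U-box protein gene, made up most of the sum. It had 23917 reads in fie, 62 in the pure and 13 in the full library, or 6350, 21.8 and 2.69 CPM. Its log2 fold change was 9.58 ± 1.03 (SE) in total (adjusted p = 0.000671), 10.44 for maternal reads (adjusted p = 8.24e-05) and 9.49 for paternal reads (adjusted p = 4.23e-06, all in edgeR). The maternal share went from 11.3% and 69.2% in wild type to 47.7% in fie (exact 95% interval 47.1% to 48.4%), but the wild-type full library held only 13 reads, and the difference between the maternal and the paternal change was not called (adjusted p = 0.496).

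The member with the smallest p for a difference between the allele changes was VIM5 (AT1G57800), of a family whose SRA domain binds methylated DNA. It had 3734 maternal reads in fie, against 145 in the pure and 198 in the full library, while its paternal reads were 3966, 1957 and 1556. In CPM the maternal level was 991 against 51.0 and 41.0, and the paternal level 1050 against 689 and 322. Maternal reads rose (log2 = 4.43 ± 0.79 (SE), adjusted p = 0.00147 in edgeR), and the paternal change was not called (log2 = 1.16, adjusted p = 0.351). The maternal change exceeded the paternal change by 3.27 ± 0.40 (SE) on the log2 scale (adjusted p = 3.56e-14 in edgeR), and the maternal share went from 6.9% and 11.3% to 48.5%. Its total was 2040, 740 and 363 CPM and was not called (adjusted p = 0.107). VIM5 lies near its paralog VIM1, and shared reads would make its counts uncertain.

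Besides VIM5, another 6 of the 13 members that could be tested had a maternal change above the paternal one, beside 10.6% of all genes tested in this way, whose median difference was 0.70 on the log2 scale. The auxin synthesis gene YUC10 (AT1G48910) had 124 maternal reads in fie against 2 and 28, and 131 paternal reads against 40 and 239, so its maternal share was 48.6% against 4.76% and 10.5% (log2 difference 3.19 ± 0.70 (SE), adjusted p = 0.000138 in edgeR). AT1G60410, an F-box gene, had 552 maternal reads against 2 and 4 and 301 paternal reads against 12 and 20 (log2 difference 3.44 ± 0.82, adjusted p = 0.000704). AT2G36560, an AT-hook gene, had 826 maternal reads against 3 and 0 and 227 paternal reads against 19 and 23 (adjusted p = 4.5e-10). HDG3 (AT2G32370), a homeodomain gene, had 527 maternal reads against 21 and 21 and 595 paternal reads against 116 and 100 (log2 difference 2.18 ± 0.56, adjusted p = 0.00273). The maternal share of these last 3 was 64.7%, 78.4% and 47.0% in fie, and between 0% and 17.4% in wild type.

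The remaining 2 differ from this pattern. AT3G14205, a phosphoinositide phosphatase gene, had a maternal share of 60.6% in fie against 31.2% and 37.7% (log2 difference 1.58 ± 0.43 (SE), adjusted p = 0.00475 in edgeR). SDG21 (AT2G24740), the histone methyltransferase gene also called SUVH8, was not paternally biased in the wild-type libraries, with maternal shares of 71.4% and 73.5%, and had 248 maternal reads and 1 paternal read in fie (adjusted p = 1.27e-05).

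Members nearly silent in wild type were read mostly from both alleles in fie. AT3G50720, a protein kinase gene, had 279 reads in fie and 0 in both wild-type libraries, at least 70.1-fold higher. AT4G20800, of the berberine bridge family, had 158 against 0 and 0, and AT5G54350, a zinc finger gene, 89 against 0 and 0, at least 39.7-fold and 22.4-fold higher. AT5G62110, a homeodomain-like gene, had 461 against 1 and 2. SUVH7 (AT1G17770), another histone methyltransferase gene, had 581 against 8 and 10 (log2 = 5.85 ± 1.24 (SE), adjusted p = 0.0155 in edgeR), and AT4G11940 had 265 against 5 and 11 (log2 = 5.12 ± 0.92, adjusted p = 0.00507). The MADS gene AGL92 (AT1G31640) had 281 against 12 and 3, AT1G66630, of a RING and TRAF-like family, 44 against 1 and 0, and AT1G49290 58 against 5 and 1, and all 3 were called higher. All genes from AT3G50720 to AT1G49290 had under 20 wild-type reads, so the read minimum fixed their direction and their calls are a description only. NRPD1A (AT1G63020), the largest subunit of RNA polymerase IV, stood at 28.1, 2.82 and 7.66 CPM and was not called in total (adjusted p = 0.117), and its maternal reads rose from 5 and 11 to 82 (adjusted p = 0.0219). MEE27 (AT2G34880), a jumonji gene, had 14, 4 and 8 reads, all of them maternal.

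**Figure D3:**
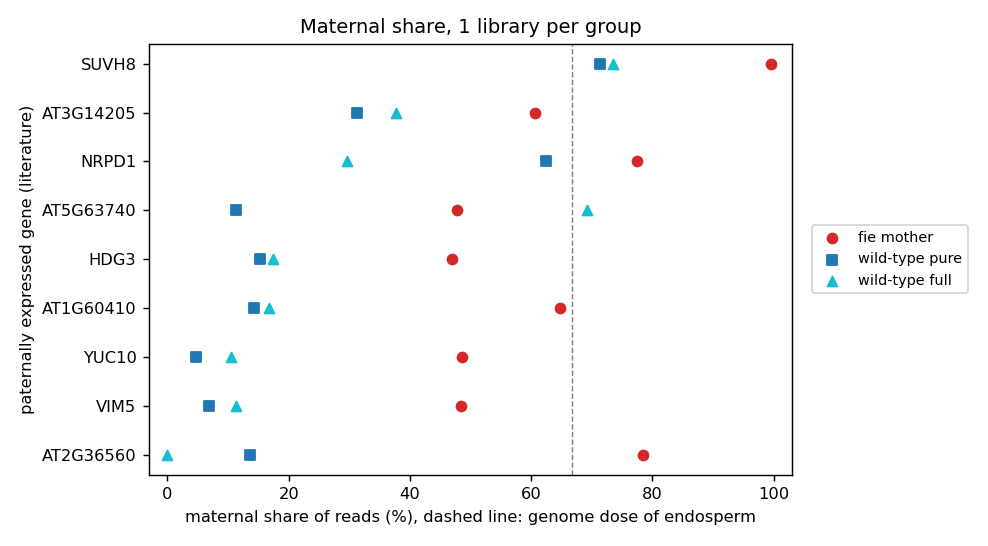
The maternal share of reads in percent is plotted for the 9 literature paternally expressed genes with at least 20 reads in fie and 20 in wild type, for the fie (circle), wild-type pure (square) and wild-type full (triangle) libraries, leaving out a library with under 5 reads. The fie circles lie right of both wild-type points in every row but that of AT5G63740, and the dashed line marks the 2 to 1 genome dose.

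Genes known as maternally expressed were taken next. Of 11 listed genes, 9 were tested, with a median log2 of 2.51 beside 0.65 over all tested genes, 8 of them above 0 and 1 below. In 4 of the 9 the wild-type libraries together held under 20 reads, so the read minimum lifted this median and fixed the direction of those 4. Of the other 5, edgeR called 0 higher, beside 3.0% of all genes with as many wild-type reads. HDG8, FWA and AGL36 were called higher, beside 7.99% of all tested genes, and DME was called lower by DESeq2 alone. All 3 passed the read minimum only through the fie library, so their count is a description only. The homeodomain gene HDG8 (AT3G03260) had 757 maternal reads in fie against 0 and 4, and 618 paternal reads against 2 and 0 (total log2 = 8.77 ± 1.55 (SE), adjusted p = 0.00933 in edgeR). FWA (AT4G25530), a homeodomain gene and a classical imprinted gene, had 333 maternal reads against 1 and 1, and only 1 paternal read in fie and 0 in wild type. Its ratio to the pure library was 252, with a counting interval from 44.9 to 9980 (adjusted p = 0.00241 in edgeR). The type I MADS gene AGL36 (AT5G26650) had 29 maternal reads and no paternal read in fie, and 0 reads in wild type. HDG8 was thus read from both alleles in fie, and FWA and AGL36 almost only from the maternal one.

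The others were not called in total. AT1G59930, a MADS gene, stood at 378 CPM against 119 and 26.5, and HDG9 (AT5G17320) at 113 against 51.0 and 14.5. The F-box gene SDC (AT2G17690) stood at 30.3 CPM against 19.4 and 13.7. Both genes were higher in fie than in the pure library itself, by 2.21-fold for HDG9 (counting interval 1.82 to 2.68) and 1.56-fold for SDC (1.12 to 2.2). The sign turned against the pure level fitted over both crosses, and also without the pure library. MYB3R2 (AT4G00540), a MYB gene, was at 36.6 against 4.58 and 13.3 CPM, and its paternal reads rose from 0 and 2 to 20 (adjusted p = 0.0117 in edgeR). DME (AT5G04560), the DNA glycosylase that activates maternal alleles in the central cell, was at 45.4 against 141 and 137 CPM, with paternal reads of 19 against 133 and 189 (log2 = -3.08, adjusted p = 0.0279 in edgeR).

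Of 16 genes of the endosperm list 9 were tested, and 4 were called higher and 1 lower, beside 7.99% and 3.19% of all tested genes. EPR1 had more reads than any other tested gene in both wild-type libraries and fell from 372100 and 694611 reads to 277. The whole list, EPR1 included, summed to 844 CPM in fie against 133000 and 145000. Wild-type libraries of the reciprocal cross varied widely, at 17200 (LCM-titled pure), 87500 (other pure) and 208000 CPM (full). The lower wild-type library stood 1780-fold above fie, with a counting interval from 1580 to 2010 (log2 = -10.98 ± 2.42 (SE), adjusted p = 0.0132 in edgeR). The maternal share of EPR1 hardly moved, at 72.9% against 69.9% and 65.4%, and similar neighbouring genes make its counts uncertain. The call was lost under TMM (adjusted p = 0.0614, from 4.29e-73 to 0.323 over the alternatives). The protease gene ALE1 (AT1G62340), which acts with ZOU on the embryo cuticle, was at 61.9 CPM against 1260 and 356 and was not called in total (adjusted p = 0.0916). ZOU itself was not called in total either (adjusted p = 0.124), but its paternal reads fell from 122 and 214 to 0, at least 53.9-fold lower (adjusted p = 0.00197 in edgeR), while 52 maternal reads were left. The paternal reads of ZOU passed the read minimum only through the wild-type libraries, which fixed their direction.

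The 4 higher calls of the list were WRKY10, CKX2, IPT4 and AGL62, all with under 20 wild-type reads, so the read minimum fixed their direction and the count is a description only. WRKY10 (AT1G55600), also called MINI3 and known to promote endosperm growth, had 118 reads in fie, 59 from each parent, and 0 in both wild-type libraries, at least 29.7-fold higher (adjusted p = 0.00367 in edgeR). The cytokinin oxidase gene CKX2 (AT2G19500), which breaks down cytokinin, had 637 reads against 3 and 16 (log2 = 6.36 ± 0.89 (SE), adjusted p = 0.0015), with 325 maternal and 312 paternal reads. The cytokinin synthesis gene IPT4 (AT4G24650) had 115 reads against 0 and 0, at least 28.9-fold higher (adjusted p = 0.00373). Another gene of that family, IPT6 (AT1G25410), went the other way and fell from 2946 and 5171 reads to 3, all 3 paternal. IPT6 passed the read minimum only through the wild-type libraries, so its call is a description only. The lower wild-type library stood 1300-fold above fie for IPT6 (counting interval 445 to 6320, adjusted p = 0.0051 in edgeR).

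Several strongly expressed genes of wild-type endosperm left no read in fie. They passed the read minimum only through the wild-type libraries, which fixed their direction, so their calls are a description only. Of the 187 tested genes with no read in fie, 79 were called lower. AT3G23090, of the TPX2 microtubule protein family, had 2500 and 2971 reads in wild type and 0 in fie, at least 773-fold lower (adjusted p = 0.001 in edgeR). The glycine-rich protein gene GRP14 (AT5G07510) had 1642 and 335 reads and 0 in fie, at least 87.1-fold lower. The Dof transcription factor gene DOF6 (AT3G45610) had 545 and 262 reads, the peroxisomal citrate synthase gene CSY1 (AT3G58740) 260 and 329, SSL4 (AT3G51420) of the strictosidine synthase-like family 226 and 494, and WRKY49 (AT5G43290) 172 and 512, each with 0 in fie. These 4 were at least 68.1-fold, 85.5-fold, 99.9-fold and 76.0-fold lower. AT4G31330 and AT5G25330, with 636 and 146 reads and with 335 and 180 reads in wild type, also had 0 in fie. AT1G14950 had 21 reads in the pure and 10134 in the full library, so the size of its fall depends on the preparation.

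Others fell to a few reads. These, too, passed the read minimum only through the wild-type libraries, so their calls are a description only. The developmental regulator ULT2 (AT2G20825) went from 8190 and 2538 reads to 8, all maternal (log2 = -9.16 ± 1.34 (SE), adjusted p = 0.00179 in edgeR). The auxin response factor gene ARF11 (AT2G46530) went from 2913 and 2429 reads to 8, also all maternal (log2 = -8.38 ± 1.27, adjusted p = 0.00204). The glycosyltransferase gene AT4G19460 went from 8165 and 3341 reads to 6, and the vacuolar processing protease gene ALPHA-VPE (AT2G25940) from 116 and 411 reads to 3.

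Regulators of seed maturation and the reserves they govern were lower. Of 12 listed regulators 6 were tested, and 3 of the 5 with at least 20 wild-type reads fell, beside 3.8% of all such genes. The B3 factor gene FUS3 (AT3G26790) had 2 reads in fie against 99 and 357 (log2 = -6.48 ± 1.15 (SE), adjusted p = 0.00475 in edgeR), the B3 factor gene ABI3 (AT3G24650) 46 against 386 and 817 (log2 = -3.65 ± 1.03, adjusted p = 0.0413), and the bZIP factor gene DPBF2 (AT3G44460), also called bZIP67, 18 against 1028 and 1508 (log2 = -6.19 ± 1.17, adjusted p = 0.0065). All 3 fell from both alleles, and the total of ABI3 was not called under TMM. FUS3 and DPBF2 passed the read minimum only through the wild-type libraries, so their calls are a description only. LEC1 (AT1G21970), a master regulator of the embryo and the maturing seed, had 6 reads against 57 and 47 and was not called (adjusted p = 0.0883 in edgeR) but was under TMM and by DESeq2 (adjusted p = 0.0377 and 0.00534, from 0.00064 to 0.59 over the alternatives), and BZIP53 (AT3G62420) stood at 159 against 124 and 273 CPM.

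Storage genes, for proteins and for the oleosins that coat oil bodies, summed to 587 CPM in fie against 17500 and 27600. Of the 17 listed genes 8 had no read, and the other 9 all had a negative log2, with a median of -4.80 (-4.09 with the gene at 0 in fie set to its bound), beside 0.65 over all genes. The oleosin genes OLEO3 (AT5G51210), AT3G01570 and OLEO2 (AT5G40420) were called lower, a share of 3 in 9 beside 3.8% of all genes with at least 20 wild-type reads. DESeq2 called 5 of the 9, TMM 1, and 0 were called without the wild-type pure library. OLEO3 stood at 134 CPM against 7040 and 1950 (log2 = -4.80 ± 1.15 (SE), adjusted p = 0.0196 in edgeR), AT3G01570 at 39.8 against 890 and 1930 (adjusted p = 0.0201), and OLEO2 at 22.3 against 302 and 384 (adjusted p = 0.0396). OLEO1 (AT4G25140), at 314 against 8810 and 19800 CPM, and the cruciferin gene CRA1 (AT5G44120), at 52.3 against 251 and 1970, were not called, with wild-type libraries far apart. The maternal share of OLEO2 fell to 44.0% from 71.5% and 68.3% (adjusted p = 0.0309 for the difference of the allele changes), and that of AT3G01570 to 62.0% from 77.7% and 80.5% (adjusted p = 0.045).

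ABI3 and FUS3 bind the RY element, here searched as CATGCA on both strands in the same 250 bases. The promoters of OLEO3 and AT3G01570, both called lower, are shown because they hold the element, printed in capitals. Whether the element has a part in their lower levels was not tested.
OLEO3 promoter, chr5:20819818-20820067 (plus strand): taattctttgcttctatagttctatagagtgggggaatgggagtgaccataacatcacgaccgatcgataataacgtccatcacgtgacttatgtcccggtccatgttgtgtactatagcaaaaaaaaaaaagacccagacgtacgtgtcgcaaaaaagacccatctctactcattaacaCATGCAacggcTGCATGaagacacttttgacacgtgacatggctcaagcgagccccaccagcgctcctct
AT3G01570 promoter, chr3:222828-223077 (minus strand): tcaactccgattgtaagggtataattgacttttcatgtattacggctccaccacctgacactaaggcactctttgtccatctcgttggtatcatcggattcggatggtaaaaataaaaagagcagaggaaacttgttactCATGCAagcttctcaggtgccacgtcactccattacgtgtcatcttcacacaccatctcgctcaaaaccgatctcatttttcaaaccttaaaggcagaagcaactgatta
The letters occurred in 14 of the 17 storage promoters and in 8.43% of all 27443 promoters. OLEO3 holds 2 matches and AT3G01570 holds 1. The match nearest the start begins 59 bases upstream in OLEO3 and 110 in AT3G01570. The 14 include genes that were not called, and a match is not a bound site.

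Photosynthesis genes, active in the green endosperm and embryo of the filling seed, summed to 354 CPM in fie against 2380 and 2300. Of 25 listed genes 16 were tested, all 16 with a negative log2 (median -2.85, beside 0.65 over all genes), and 5 were called lower, beside 3.8% of all genes with at least 20 wild-type reads. Calls numbered 12 by DESeq2, 6 under TMM and 1 each without the wild-type pure or the full library. The antenna protein gene CAB2 (AT1G29920) had 6 reads against 538 and 946 (log2 = -6.89 ± 1.23 (SE), adjusted p = 0.00493 in edgeR). The antenna genes LHCB4.2 (AT3G08940), LHCA3 (AT1G61520) and LHCA2 (AT3G61470) stood at 11.4 against 322 and 127 CPM, 1.86 against 48.6 and 26.3 CPM, and 12.7 against 61.3 and 183 CPM. The photosystem I gene PSAG (AT1G55670) stood at 14.9 against 127 and 104 CPM. Antenna genes of one class are near copies of each other, which makes single counts uncertain. Of 13 tested oil synthesis genes, BCCP2 (AT5G15530), a subunit of the enzyme that starts fatty acid synthesis, fell from 54.9 and 18.6 CPM to 1.86 (adjusted p = 0.0196 in edgeR). CAB2, LHCA3 and BCCP2 had under 20 reads in fie and passed the read minimum only through the wild-type libraries. Their calls are a description only.

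The remaining lists are read against the 7.99% of tested genes called higher and 3.19% called lower, or 3.0% and 3.8% of those with at least 20 wild-type reads. Of 20 tested DNA methylation genes 3 were called higher: VIM2 (AT1G66050) at 88.1 against 5.28 and 7.66 CPM, the Argonaute gene AGO9 (AT5G21150) at 72.0 against 4.22 and 14.5, and SUVH9 (AT4G13460), which helps recruit RNA polymerase V, at 681 against 57.7 and 161. Their adjusted p was 0.0118, 0.0308 and 0.0263 in edgeR. Among floral MADS and KNOX genes, known Polycomb targets, 9 of 27 were tested. The floral genes AP3 (AT3G54340) and SEP3 (AT1G24260) were called higher, at 110 against 4.93 and 19.9 CPM and at 26.8 against 0.352 and 7.04 CPM, and KNAT6 (AT1G23380) was called lower with 1 read against 19 and 43. All 416 AP3 reads and 99 of the 101 SEP3 reads in fie were maternal. Seed coat tissue is maternal, although the seed coat list also holds NAM, which was read almost only from the paternal allele. The list summed to 25400 CPM in fie against 3000 and 10300, and 99.2% of its reads in fie were maternal. The part of seed coat RNA in these values was not tested. Neither AP3, SEP3, SUVH9 nor IRX1 was called under TMM. Of 3 tested auxin synthesis genes, TAR1 (AT1G23320) was called higher, with 39 reads against 0 and 1. Of 19 tested cell cycle genes, the replication licensing gene CDC6 (AT2G29680) was, with 30 reads against 0 and 1. TAR1 and CDC6 passed the read minimum only through the fie library, and KNAT6 only through the wild-type libraries.

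Of 8 tested cell wall genes, the cellulose synthase gene CESA9 (AT2G21770) was lower, at 15.1 against 167 and 235 CPM, and IRX1 (AT4G18780), the secondary wall cellulose synthase CESA8, was higher, at 169 against 15.5 and 46.2 CPM. Of 13 tested embryo genes the epidermis regulator ATML1 (AT4G21750) was called higher, at 378 against 13.0 and 73.7 CPM. The list as a whole went the other way, with 11 of the 13 at a negative log2 and a median of -1.85. The median over all tested genes was 0.65. Of the embryo genes edgeR called 0 lower, with 5 lower at an unadjusted p under 0.05, and DESeq2 called 5 lower. Of the 23 tested seed coat genes 2 were called higher. These were AT3G50990, the peroxidase PER36 of the mucilage-secreting cells, with 133 reads against 0 and 9, and the NAC gene NAM (AT1G52880). AT3G50990 passed the read minimum only through the fie library. NAM had 224, 2 and 295 reads, almost all paternal, so its level in fie matched the full library and its call rested on the pure one. Of 7 tested reference genes edgeR called 0, with 2 at an unadjusted p under 0.05 and 0 by DESeq2, and UBQ10 (AT4G05320) stood at 1110, 1000 and 1050 CPM.

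**Figure D4:**
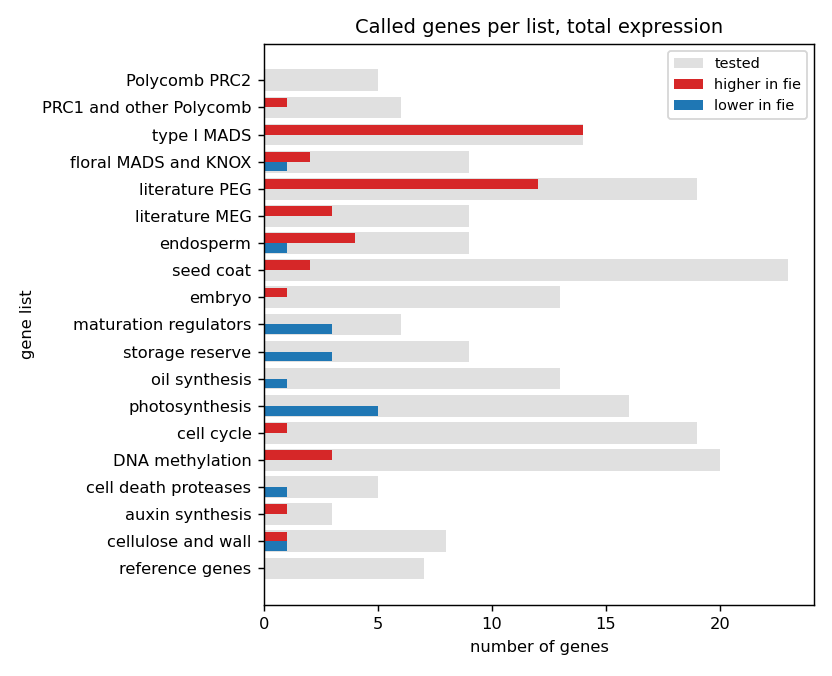
Horizontal bars give the number of genes of each list that were tested (grey), called higher (red) and called lower (blue) in total expression in the fie library. Type I MADS and literature paternally expressed genes (PEG) have 14 of 14 and 12 of 19 members called higher, and photosynthesis, storage and maturation lists hold the most lower calls, while literature maternally expressed genes (MEG) have 3 of 9 higher.

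Whether the change came from the maternal or the paternal allele was asked separately. Of 10198 genes tested for maternal reads, 891 (8.74%) were called higher and 321 (3.15%) lower in fie. Of 7504 genes tested for paternal reads, 753 (10%) were called higher and 927 (12.4%) lower. The median log2 was 0.83 for maternal and -0.07 for paternal CPM. TMM moved these medians to 0.28 and -0.62, with 609 higher and 401 lower maternal and 656 higher and 1430 lower paternal calls, and DESeq2 gave 417 and 550 maternal and 336 and 1240 paternal calls. With the total of reads of the same parent as library size, paternal calls were 1043 higher and 718 lower. The split of paternal calls therefore depends on the scale.

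Changes of both alleles were then set side by side. Among 7268 genes tested for both, 465 were called higher from both and 240 lower from both. No gene was called higher from one and lower from the other in edgeR (0 in DESeq2), although 16 had maternal reads higher and paternal reads lower at an unadjusted p under 0.05, and 1 the reverse. Some genes reached the read minimum of both alleles only through fie, or only through wild type. The read minimum set part of this agreement in advance. Of the 888 genes called higher in total, 445 were called from both alleles, 295 from maternal reads alone and 72 from paternal reads alone. Of the 295, 43 had enough paternal reads to be tested. Of the 355 called lower, 233 were called from both, 43 from maternal and 73 from paternal reads alone.

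**Figure D5:**
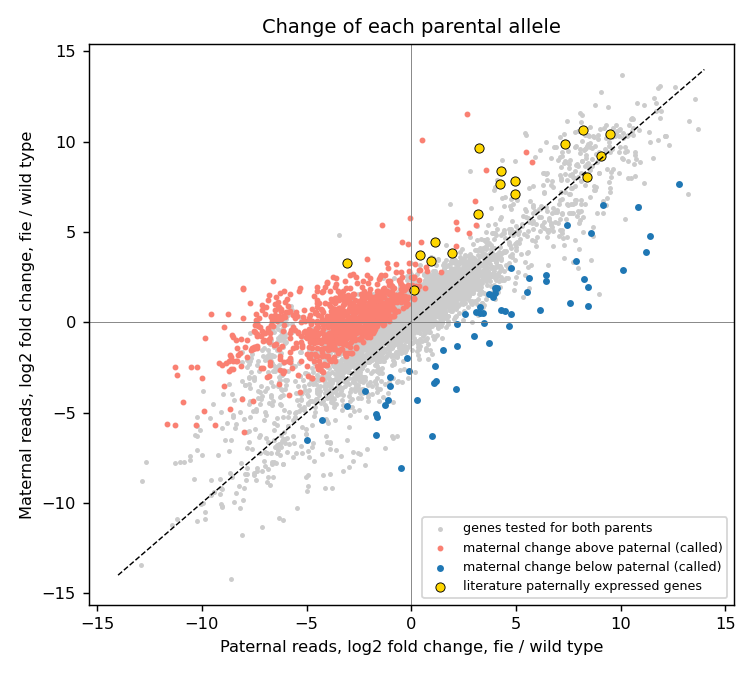
Each point is a gene tested for both alleles, with the log2 fold change of its paternal reads on the horizontal and of its maternal reads on the vertical axis, fie over same-cross wild type. Points called for a maternal change above the paternal one (salmon) lie above the dashed line of equal change, those called below it are blue, and most literature paternally expressed genes (yellow) lie above the line.

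The difference between the maternal and the paternal change was tested in 1 model over 9058 genes. The maternal change was above the paternal one in 961 genes (10.6%) and below it in 60 (0.662%), and the median difference was 0.70 on the log2 scale. The library-wide maternal share was 77.3% in fie, 66.9% in the pure and 71.5% in the full library. The seed coat list was 99.2% maternal in fie, 88.9% in the pure and 96.1% in the full library. The part of seed coat RNA in the median difference was not tested. Without the wild-type pure library 462 and 27 genes were called, and without the full library 481 and 30.

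Several genes lost paternal reads while maternal reads were kept. POM1 (AT1G05850), a chitinase-like protein of cellulose deposition, had 13 paternal reads in fie against 199 and 435, and 4433 maternal reads against 1004 and 3320. Its allele changes differed by 5.77 on the log2 scale (adjusted p = 1.52e-27 in edgeR), and its maternal share was 99.7%. CESA3 (AT5G05170), a primary wall cellulose synthase listed under the symbol CEV1, had 39 paternal reads against 1049 and 1139 and 2221 maternal reads against 1727 and 2506 (log2 difference 4.90, adjusted p = 1.62e-26). NARS1 (AT3G15510), a NAC gene of the seed coat and embryo with the symbol NAC2, had 7 paternal reads against 458 and 533 and 701 maternal reads against 378 and 762 (log2 difference 6.50, adjusted p = 2.79e-27). POM1, CESA3 and NARS1 are outside the rule for named genes and were picked from the lists after their values were seen. Total expression of these 3 genes was not called.

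The 10 genes with the largest maternal excess, among those with at least 100 reads in a library, had lost all paternal reads or gained maternal reads from 0. The potassium transporter gene KUP3 (AT3G02050) had no paternal read in fie against 93 and 117, at least 30.4-fold lower, and 274 maternal reads against 122 and 271 (adjusted p = 2.05e-14 in edgeR). The starch-degrading gene BAM5 (AT4G15210) had 0 paternal reads against 60 and 62 and 382 maternal reads against 234 and 324. The nucleoside transporter gene ENT6 (AT4G05110) had 0 paternal reads against 80 and 222, and AT2G16990, a transporter of the major facilitator family, 0 against 470 and 283, at least 35.4-fold and 73.6-fold lower. AT1G05280, the cyclin gene CYCP4;1 (AT2G44740) and the flavonoid gene CHIL (AT5G05270) also had 0 paternal reads in fie, against 65 and 22, 43 and 20, and 8 and 151.

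Gained maternal reads marked the other 3. AT1G24062, a cysteine-rich protein gene, had 432 maternal reads in fie and 0 in both wild-type libraries, at least 109-fold higher, beside 172 paternal reads against 39 and 18 (adjusted p = 3.88e-11 in edgeR). AT1G43665, of the lipid-transfer protein family, had 161 maternal reads against 0 and 0, at least 40.5-fold higher, beside 25 paternal reads against 15 and 20 (adjusted p = 4.78e-08). Both were read from the paternal allele alone in the wild-type libraries. AT3G24420, a hydrolase gene, had 515 maternal reads against 0 and 11 and no paternal read against 1 and 13.

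Among the 60 genes with the reverse difference, several read almost only from the maternal allele in wild type gained paternal reads. The beta-xylosidase gene BXL3 (AT5G09730), of cell wall remodelling, had 1053 paternal reads in fie and 0 in both wild-type libraries, at least 265-fold higher, and 2927 maternal reads against 7 and 30 (adjusted p = 0.00342 in edgeR for the difference of the allele changes). CYP89A6 (AT1G64940), a cytochrome P450, had 286 paternal reads against 0 and 0 and 279 maternal reads against 4 and 23, and MIPS3 (AT5G10170), an enzyme of inositol synthesis, 266 against 0 and 0 and 532 against 2 and 14. AT5G41250, of the exostosin family, had 251 paternal reads against 0 and 0 and 615 maternal reads against 23 and 71. The carboxypeptidase-like gene SCPL34 (AT5G23210) had 202 paternal reads against 0 and 1.

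AT5G40450, described as an A-kinase anchor-like protein, had 481 paternal reads in fie against 0 and 11 and 689 maternal reads against 60 and 1617 (log2 difference -6.90 ± 0.71 (SE), adjusted p = 1.62e-19 in edgeR). Its maternal share was 58.9% in fie (exact 95% interval 56.0% to 61.7%) against 100% and 99.3%. Its neighbour AT5G40451 had 26 paternal reads against 0 and 1, and overlapping reads of this pair cannot be told apart. AT1G69630, an F-box gene, had 176 paternal reads against 3 and 12 while maternal reads were 79 against 60 and 114, and its maternal share was 31.0% against 95.2% and 90.5% (adjusted p = 4.53e-09). The lectin-type gene PP2-B10 (AT2G02360) had 8 maternal reads in fie against 102 and 78 and 352 paternal reads against 52 and 115, and neither change was called by itself (adjusted p = 0.0517 and 0.0946 in edgeR), although their difference was (adjusted p = 0.000508).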

How the data were processed

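The deposited files hold raw read counts per gene for each ecotype, which the authors assigned to the Columbia or the Landsberg allele by mismatches to each cDNA sequence, per the file headers and the accompanying notes. Bowtie is named in the submitters' processing notes, without a version, and the gene annotation is not named in the labels or notes. Counts were used as deposited. Of 28523 gene identifiers, 27688 matched a locus of RefSeq's TAIR10.1, from which names and promoter sequences were taken. Some promoter sequences are not reported here.

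The fit of edgeR 4.0.16 in R 4.3.3 held 6 wild-type and fie endosperm libraries with terms for cross, preparation and fie, and took the total of allele-assigned reads as library size. The fie library was set against the mean of the fitted wild-type pure and full libraries of its cross. Genes needed 20 reads over those 3 libraries in the measure tested, and a call was an adjusted p under 0.05. The difference between allele changes was tested with library and allele terms in genes with at least 10 reads in fie and 10 in wild type. Folds of genes at 0 take 3 reads per library as the floor. Libraries of a group are not said to come from separate plants, and the p-values rest on how far these libraries differ, which may be technical. Intervals (95%, exact) and floors cover counting error only. The code was tested on simulated data.

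Named genes were, per comparison and direction, the 10 called genes with the largest log2 fold change outside both wild-type values with at least 100 reads in a library, up to 6 called members of each list by size of change, all measured PRC2 and imprinted members, and FIE. Some genes it selects are not printed. Lists and members were chosen with earlier results of these data known. Alternatives were TMM, DESeq2 1.42.0, other read minimums, other wild-type references, the same parent's total as library size, and each wild-type library left out. List counts under these alternatives were added after seeing the data.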

Additional observations from a re-analysis of the deposited data

Results flagged for a closer look

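The type I MADS list was also high in a library that entered none of the comparisons. In endosperm of the cross of a dme mother (Col) with a wild-type Ler father, the 40 listed genes summed to 984 CPM, while the 5 wild-type endosperm libraries of both crosses lay between 5.7 and 41.9 CPM. The storage, photosynthesis and endosperm lists summed to 830, 426 and 889 CPM in the dme library, near the 587, 354 and 844 CPM of fie. The dme endosperm was 1 library, and these sums were not tested.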

How the results depend on the processing

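No paired analysis was possible because the titles of the libraries compared carry no shared replicate numbers. Counts of calls moved with the test, the reference and the read minimum, with 44 counts over 1.5 times away from the main one and 56 within. In total expression, higher and lower calls were 547 and 798 with DESeq2, 1456 and 578 with a minimum of 1 read, and higher calls were 575 against the fitted full level alone and 588 with a minimum of 50 reads. Maternal calls were 417 higher and 550 lower with DESeq2, with 574 higher against the fitted full level alone and 555 at 50 reads. Paternal higher calls were 336 with DESeq2 and 479 at 50 reads, and lower calls 1430 under TMM. The fold rule gave 3073 and 1471 genes at 2-fold, 662 and 363 at 8-fold, and 865 higher under TMM.

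Leaving out each wild-type library in turn gave 107 to 3376 higher and 112 to 1409 lower total calls, 74 to 2658 and 81 to 897 maternal calls, and 54 to 1555 and 163 to 1888 paternal calls. The allele difference was called above in 462 to 1147 and below in 27 to 77 genes, and the fold rule held for 1535 to 3197 higher and 1063 to 1228 lower genes. The fewest total calls came without the wild-type pure library of the same cross, the most without the LCM-titled library, which holds 358142 reads and is the shallowest of the fit.

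The sign of several genes turned under some settings, none of them called there. The total log2 was -0.62 for SDC and -0.15 for HDG9 against the fitted pure level alone, which is estimated over both crosses, and -1.03, -0.06 and -0.36 for SDC, HDG9 and HDG3 without the pure library of the same cross. Without the full library these 3 stood at 2.82, 4.15 and 6.56. It was -0.06 for VRN2 under TMM and -0.19 for EMF2 against the fitted full level alone. The paternal log2 of NAM was -0.03 against the fitted full level alone and -0.07 without the pure library, and 6.27 without the full library. The cause of these changes was not tested. With 1 fie library, depth leaves genes under 20 reads untested.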
